A study of Mus musculus with 6 samples.

Results

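The cytochrome P450 family 2 (Cyp2) genes were followed in damaged hepatocytes (dHeps) kept in culture with solvent or with small-molecule cocktails. Members were the rows of the deposited count table whose symbol was Cyp2, a subfamily letter and a number. Pseudogene rows, marked -ps, were left out. There were 49 members of 52323 genes in the table, in 13 subfamilies from Cyp2a to Cyp2w. Of these, 33 passed the filter on low counts and were tested among 19135 genes. The other 16 were 10 genes at 0 in all 6 libraries and 6 genes whose highest count in any library was 8.

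The dHeps came from livers of mice of the genotype AAV-TBG-Cre:Rosa-LSL-tdTomato that had been injured with carbon tetrachloride (CCl4). In these mice an adeno-associated virus expresses Cre under the hepatocyte promoter TBG, so that cells which carried active Cre are marked by tdTomato. Cells of all groups were kept for 16 days in serum-free hepatocyte maintenance medium. The DMSO group received solvent. The 3C group received the protein kinase D inhibitor CID755673 at 50 µM, the ROCK inhibitor GSK429286A at 2 µM and ETC-1002, which blocks ATP citrate lyase in lipid synthesis, at 5 µM. The 5C group received the same compounds at the same doses plus the plant glycoside salidroside at 5 µM and forskolin, which raises cAMP through adenylate cyclase, at 2 µM. There were 2 libraries per group. The labels did not say whether replicates came from separate animals, so p-values measure only the spread between these libraries, which may be technical.

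Cyp2 enzymes are heme-containing monooxygenases of the endoplasmic reticulum. They take electrons from NADPH through the P450 oxidoreductase Por and insert oxygen into drugs, steroids, fatty acids and other lipophilic compounds. In the liver they are typical products of mature hepatocytes, many are set by the nuclear receptors CAR (Nr1i3) and PXR (Nr1i2), and their levels fall when hepatocytes are injured or cultured. Mice carry expanded clusters of closely related Cyp2 genes. In GRCm39, 15 members lay on chromosome 19 (Cyp2c), 15 on chromosome 7 (Cyp2a, Cyp2b, Cyp2e, Cyp2f, Cyp2g, Cyp2r, Cyp2s and Cyp2t), 9 on chromosome 15 (Cyp2d) and 8 on chromosome 4 (Cyp2j), with Cyp2u1 on chromosome 3 and Cyp2w1 on chromosome 5.

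The sequence of a member decides how surely its reads can be told from those of its neighbours. Of the 33 tested members, 17 shared at least 10% of the 50-base words of their main transcript with another gene. Stretches of 90 coding bases from the start of the last coding exon, which holds the codon of the heme-binding cysteine, are printed from GENCODE transcripts of GRCm39 for genes that the results turn on. Among Cyp2c genes on chromosome 19, capitals mark bases that differ from Cyp2c29 (chr19:39318696-39318785, exon 9, plus strand). The others lie in exon 9 at chr19:40000171-40000260 (plus), chr19:40101878-40101967 (plus) and chr19:40026773-40026862 (minus).
Cyp2c29: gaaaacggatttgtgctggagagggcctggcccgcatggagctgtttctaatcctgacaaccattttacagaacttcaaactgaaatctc
Cyp2c37: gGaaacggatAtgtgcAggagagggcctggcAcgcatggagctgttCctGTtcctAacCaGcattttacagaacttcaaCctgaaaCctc
Cyp2c50: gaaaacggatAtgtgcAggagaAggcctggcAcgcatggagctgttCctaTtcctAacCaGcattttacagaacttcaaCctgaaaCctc
Cyp2c54: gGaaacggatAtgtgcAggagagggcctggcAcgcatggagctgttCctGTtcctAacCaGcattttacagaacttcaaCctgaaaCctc
Cyp2c37 and Cyp2c54 were identical over this stretch and differed from Cyp2c29 at 12 of 90 bases, while Cyp2c50 differed from it at 11. Among Cyp2a genes on chromosome 7, capitals mark differences from Cyp2a5 (chr7:26542303-26542392). Cyp2a4 lies at chr7:26014128-26014217 and Cyp2a12 at chr7:26735890-26735979, all in exon 9 on the plus strand.
Cyp2a5: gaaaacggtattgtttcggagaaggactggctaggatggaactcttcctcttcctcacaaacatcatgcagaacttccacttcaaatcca
Cyp2a4: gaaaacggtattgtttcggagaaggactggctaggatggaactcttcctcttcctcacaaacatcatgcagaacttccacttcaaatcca
Cyp2a12: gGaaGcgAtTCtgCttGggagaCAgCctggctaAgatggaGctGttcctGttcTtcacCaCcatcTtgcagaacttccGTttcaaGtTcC
Cyp2a4 had 0 differences from Cyp2a5 and Cyp2a12 had 23. Among Cyp2d genes on chromosome 15, capitals mark differences from Cyp2d10 (chr15:82287208-82287297, exon 9, minus strand). Cyp2d9 lies at chr15:82340777-82340866 (exon 9, plus), Cyp2d26 at chr15:82674467-82674556 (exon 9, minus) and Cyp2d22 at chr15:82255837-82255926 (exon 10, minus).
Cyp2d10: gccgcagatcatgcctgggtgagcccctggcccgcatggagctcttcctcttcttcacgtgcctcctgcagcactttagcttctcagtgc
Cyp2d9: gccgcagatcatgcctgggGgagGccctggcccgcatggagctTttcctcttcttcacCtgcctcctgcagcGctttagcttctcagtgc
Cyp2d26: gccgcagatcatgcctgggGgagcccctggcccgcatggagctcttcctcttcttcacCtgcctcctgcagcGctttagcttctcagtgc
Cyp2d22: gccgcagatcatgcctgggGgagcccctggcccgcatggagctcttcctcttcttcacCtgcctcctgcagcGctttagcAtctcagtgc
Cyp2d9 differed from Cyp2d10 at 5 bases, Cyp2d26 at 3 and Cyp2d22 at 4.

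Over the whole transcript the shared words were 2.08% for Cyp2c29, 30.2% for Cyp2c37, 29.3% for Cyp2c50 and 15% for Cyp2c54. They were 38% for Cyp2a4, 40.4% for Cyp2a5 and 27.5% for Cyp2a12, which shared all of them with Cyp2a22. Among Cyp2d genes they were 40.3% for Cyp2d10, 29% for Cyp2d9, 10.5% for Cyp2d26 and 6.25% for Cyp2d22. Cyp2c67 (53.3%), Cyp2c40 (51.9%) and Cyp2c68 (44%) were the highest of the tested members, and each shared most with another of these 3. Values of genes at or above 10% are uncertain, since reads could be split between copies. Whether the counting used strand is not given in the sources used here, and exons of 10 tested members overlapped an annotated gene on the opposite strand. Among these were Cyp2a4, Cyp2a5, Cyp2a12, Cyp2c23, Cyp2f2 and Cyp2s1. Exons of 5 tested members (Cyp2c29, Cyp2d9, Cyp2d10, Cyp2d11 and Cyp2d13) overlapped another annotated gene on the same strand, which bears on their counts whatever the strand setting.

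The family as a whole was lowest in DMSO, higher in 3C and highest in 5C. Members together held 162.4 and 146 CPM (counts scaled to the library total) in the DMSO libraries, 488.8 and 500.1 in 3C, and 869.8 and 928.6 in 5C. No library of a group reached into the range of another group. Library totals were 65916573 to 69245895, the largest 1.05 times the smallest.

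Among the members that passed the filter, 20 of 33 were called higher in 5C than in DMSO and 0 lower, where 7.3% of all tested genes were called higher and 4.42% lower. A call is an adjusted p under 0.05 (edgeR's quasi-likelihood test, Benjamini-Hochberg over all genes tested) with an absolute log2 fold change above 1. In 3C against DMSO 19 of 33 were called higher (5.83% of all genes) and 1 lower (3.62%). In 5C against 3C 10 of 33 were called higher (2.16%) and 0 lower (0.852%). The count of 10 was 6 without the second 3C library and 6 without the second 5C library. At an unadjusted p under 0.05, 0 members were lower in 5C than in DMSO and 1 was lower in 5C than in 3C. DESeq2 called 0 lower in both. Both cocktails were set against 1 pair of DMSO libraries, so these counts are not independent of each other. A filter on counts also favours members that are high in some group, and 5 tested members (Cyp2c37, Cyp2c39, Cyp2c40, Cyp2c50 and Cyp2c54) were at 0 in both DMSO libraries.

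The median log2 fold change of the 33 was 3.38 in 5C against DMSO, 2.56 in 3C against DMSO and 0.46 in 5C against 3C, beside medians of 0.0041, 0.0088 and -0.011 over all genes. With the members that had a group at 0 set to their lower bound, the medians were 2.99, 2.01 and 0.46. The median of 5C against 3C was 0.95 without the first 3C library, 1.04 without the first 5C library and 0.80 without the second 5C library. Libraries did not overlap between groups for 27, 24 and 23 of 33 members, where this held for 63.1%, 61.3% and 58% of all genes tested.

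Hepatocyte markers were higher in both cocktails than in DMSO, as the family was. Their sums overlapped between 3C and 5C. Of these sums Alb was the largest part, at 7400 and 7770 CPM in 3C and 6770 and 10400 in 5C. The summed CPM of 14 hepatocyte marker genes was 2997 and 2620 in DMSO, 12980 and 13660 in 3C and 13630 and 19360 in 5C, and 13, 14 and 6 of 14 were called higher for 5C over DMSO, 3C over DMSO and 5C over 3C. Their median log2 fold changes were 3.33, 2.29 and 0.86. Of the 11 Cyp2 members with a mean of at least 10 CPM in a group, 6, 8 and 7 lay above these medians. All but Cyp2d22, Cyp2j6 and Cyp2s1 reached that level only in a cocktail. Picking by the highest group favours large folds, so these counts cannot rank the members against the hepatocyte markers. Macrophage markers went the other way, with 8 of 10 called lower in each cocktail and sums of 8280 and 8479 CPM in DMSO, 2749 and 2739 in 3C and 1725 and 1728 in 5C. Sums of stellate cell and fibroblast markers were between 7062 and 12560 CPM in all libraries, with 4 of 10 called higher in 5C against DMSO. The lowest were those of 3C (7062 and 7158) and the highest those of 5C (11550 and 12560). Endothelial markers were split. Their sums were 523.8 and 531.4 CPM in DMSO and 163 to 261.8 in the cocktails, which followed Lyve1 and Fcgr2b, the 2 genes called lower in each cocktail, while 4 of 7 tested genes were called higher in 5C (Cdh5, Pecam1, Tek and Kdr) and 2 in 3C, with list medians of 1.31 and 0.19. Cholangiocyte sums lay between 2423 and 3777 CPM and consisted mostly of Spp1, which was not called, while 3 of 7 genes were called higher in 5C (Epcam, Krt7 and Cftr) and 5 in 3C, and none was called lower. These genes were named after their values were seen. The mesothelial sums were 2401 and 2295 in 5C and 1182 and 972 in DMSO, with 5 of 6 genes called higher. T and B cell markers were at 0 to 0.258 CPM. The labels call the samples hepatocytes, and genes listed here as markers of other liver cell types were abundant in them. The study reported that most cells from its hepatocyte-enriching isolation were tdTomato-positive. It also reported Desmin and collagen in traced hepatocytes of injured livers. Which cells the stellate cell and fibroblast marker RNA came from was not tested. In bulk RNA, fewer hepatocytes and less RNA per hepatocyte cannot be told apart, and the part of cell composition in the Cyp2 differences was not tested.

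**Figure D1:**
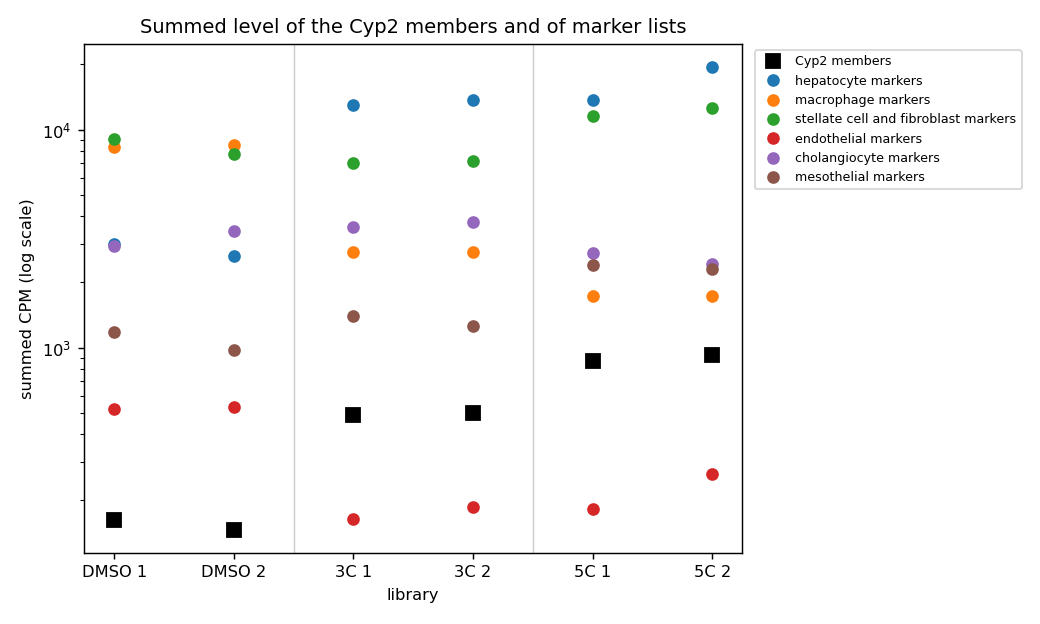
Summed CPM (log axis) of the 49 Cyp2 members (black squares) and of lists of marker genes (circles) in each of the 6 libraries. The Cyp2 sum stands at 146 to 162.4 in DMSO, 488.8 to 500.1 in 3C and 869.8 to 928.6 in 5C. The hepatocyte sum, of which Alb is the largest part, is 13630 in the first 5C library, within the range of the 3C libraries.

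The make-up of the family by subfamily differed between the groups along with its level. On the FPKM scale, which accounts for gene length and so allows levels of different genes to be set side by side, the summed level of the members was 54.3 ± 7.19 (SD, n = 2) in DMSO, 201 ± 2.14 in 3C and 410 ± 9.29 in 5C. This was 3.7-fold higher in 3C and 7.55-fold higher in 5C than in DMSO, and 2.04-fold higher in 5C than in 3C. The Cyp2c genes, which oxidise drugs and arachidonic acid, went from 3.23% of the summed FPKM in DMSO to 13.1% in 3C and 20.4% in 5C. The Cyp2b genes went from 2.64% to 4.38% and 9.06%. Cyp2j genes, which make epoxides of arachidonic acid, held shares of 22.6%, 17.7% and 7.97%, although their summed FPKM was 12.1 in DMSO, 35.7 in 3C and 32.7 in 5C. Cyp2s1 went from 19.5% to 7.4% and 7.74%. Cyp2d genes held the largest share in every group, at 43.7%, 50.7% and 48.2%.

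**Figure D2:**
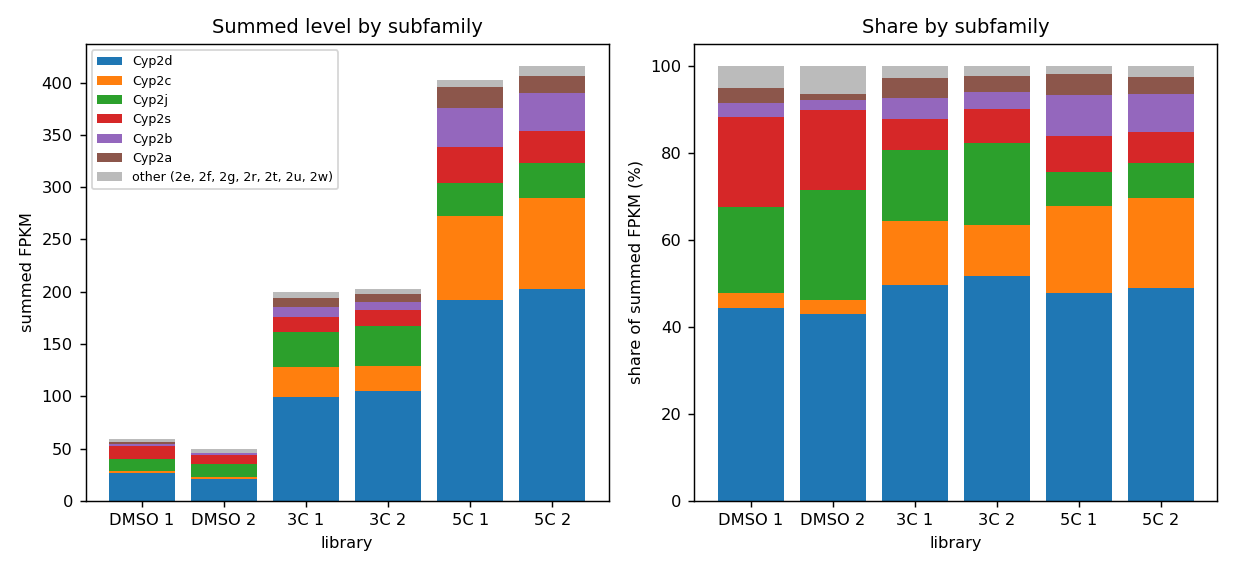
Summed FPKM (left) and share of the summed FPKM in percent (right) of the Cyp2 members by subfamily, stacked for each of the 6 libraries. The mean Cyp2c share is 3.23% in DMSO and 20.4% in 5C, the mean Cyp2j share is 22.6% and 7.97%, and Cyp2d is the largest in all groups.

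Leading members differed between groups. In DMSO, Cyp2d22 alone held 26.1% of the summed FPKM, followed by Cyp2s1 (19.5%) and Cyp2j6 (19%), and these 3 genes made up 64.4%. Cyp2d10 was the first in 3C (20.3%) and in 5C (19.7%). Cyp2c29 ranked 17 in DMSO with 0.42% and 2 in 5C with 16.2%. Members with a mean of at least 1 FPKM numbered 11 in DMSO, 15 in 3C and 16 in 5C.

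Subfamily Cyp2c had the largest ratio to DMSO of all subfamilies, with a summed FPKM 14.9-fold higher in 3C and 47.6-fold higher in 5C than in DMSO. This ratio rests largely on Cyp2c29. That gene held 0.234 of 1.76 FPKM in DMSO, 14.4 of 26.3 in 3C and 66.6 of 83.7 in 5C (means). Of 15 Cyp2c genes 11 were tested, and 8 were called higher in 5C against DMSO, 7 in 3C against DMSO and 2 in 5C against 3C. Cyp2c29, a target of CAR that makes epoxides of arachidonic acid and that the study itself singled out in these libraries, stood at 0.7 and 0.364 CPM in DMSO, 31.9 and 25.8 in 3C, and 124 and 140 in 5C. The groups were far apart and did not overlap. Its log2 fold change was 7.97 (SE 0.24) in 5C against DMSO, 5.72 (SE 0.23) in 3C against DMSO and 2.24 (SE 0.16) in 5C against 3C, with adjusted p of 5.83e-07, 4.27e-06 and 0.000313. Cyp2c70, which hydroxylates bile acids to muricholic acids, was at 2.64 and 2.29 CPM in DMSO, 16.7 and 14.2 in 3C, and 20.2 and 20.9 in 5C. It rose in both cocktails, by 3.08 (SE 0.15, adjusted p 1.38e-06) in 5C and 2.62 (SE 0.15, adjusted p 5.85e-06) in 3C on the log2 scale. Between the cocktails it differed by 0.46 with a 95% interval of 0.15 to 0.77, which did not pass the test (adjusted p 0.0616).

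The other Cyp2c genes stayed under 4 CPM in every library. Cyp2c37 and Cyp2c50, close relatives of Cyp2c29 that CAR also activates, were at 0 in both DMSO libraries. Cyp2c37 had counts of 101 and 56 in 3C and 170 and 258 in 5C, at least 6.5-fold and 17.2-fold higher than the floor of 3 fragments per library. Cyp2c50 had counts of 72 and 23 in 3C and 191 and 215 in 5C, at least 3.95-fold and 16.3-fold higher. Both were called in each comparison with DMSO. Cyp2c50 was also called higher in 5C than in 3C, at a log2 fold change of 2.10 and an adjusted p of 0.0476, and this call was lost without the second 3C library (1.49) or either 5C library (2.19 and 1.99), and the value was 3.17 without the first 3C library. Cyp2c54, identical to Cyp2c37 over the printed stretch, had counts of 0 and 0 in DMSO, 31 and 8 in 3C and 0 and 40 in 5C, with a library under the floor in each cocktail, and was not called (adjusted p 0.12 and 0.106). Cyp2c39, known as a retinoic acid hydroxylase, had counts of 0 and 0, 18 and 1, and 81 and 52. It was called in 5C against DMSO (adjusted p 0.00862, at least 5.33-fold higher, or 0.0504 without the first 5C library) and had an adjusted p of 0.0632 in 3C against DMSO, while the difference between the cocktails did not pass either (adjusted p 0.173).

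Cyp2c67, Cyp2c68, Cyp2c23, Cyp2c40 and Cyp2c55 were not called between the cocktails, and at these counts the intervals of that difference were wide. Cyp2c67 had counts of 4 and 0 in DMSO, 102 and 62 in 3C and 125 and 85 in 5C. Cyp2c68 had 11 and 9, 157 and 117, and 124 and 92. Both rose in each cocktail against DMSO, Cyp2c67 by 5.24 and Cyp2c68 by 3.72 in 3C on the log2 scale, and Cyp2c67 by 5.60 and Cyp2c68 by 3.38 in 5C. The size for Cyp2c67 rests on the 4 counts of the first DMSO library, as both DMSO libraries were under the floor, and without the second it was 4.30 in 3C and 4.66 in 5C. Without the first, DMSO was at 0 and the fitted values (9.35 and 9.71) are no measure of size. Their log2 differences between 5C and 3C were 0.36 (95% interval -1.02 to 1.74) and -0.34 (-1.18 to 0.5). Cyp2c23, an epoxygenase of kidney and liver, had counts of 19 and 8, 52 and 63, and 63 and 57. It rose by 2.04 in 3C (adjusted p 0.0304) and 2.11 in 5C (adjusted p 0.0232), and 5C and 3C differed by 0.072 (95% interval -1.14 to 1.28). Its call in 5C was lost without the second DMSO library or either 5C library (1.64 to 2.17), and its call in 3C without the second DMSO library, either 3C library or the first 5C library (1.57 to 2.15). Without the first DMSO library the values were 2.83 in 5C and 2.75 in 3C. Cyp2c40, known as female-biased, had counts of 0 and 0, 0 and 7, and 13 and 11, close to the floor, and was not called (adjusted p 0.102 in 5C against DMSO). Cyp2c55 had counts of 0 and 6, 4 and 21, and 52 and 28, with log2 fold changes of 3.63, 1.95 and 1.69 that did not pass. Cyp2c38, Cyp2c65 and Cyp2c69 were not tested (highest counts of 7, 5 and 4), and Cyp2c66 was at 0.

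**Figure D3:**
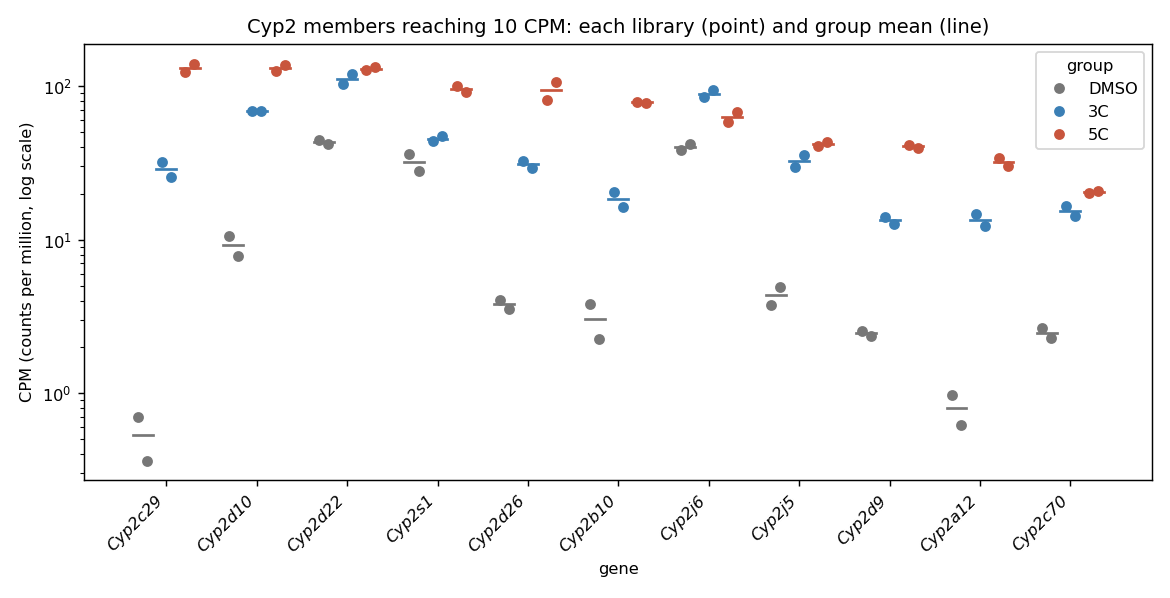
CPM (log axis) of the 11 Cyp2 members with a mean of at least 10 CPM in a group, in order of their mean in 5C; points are libraries and lines are group means. For Cyp2c29, Cyp2d26, Cyp2b10, Cyp2d9 and Cyp2a12 the 3 groups form separate steps, whereas Cyp2j6 is highest in 3C (84.8 and 94.5).

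Cyp2d genes, relatives of the human enzyme that metabolises many antidepressants and beta blockers, supplied the most RNA. Of 9 members 7 were tested. In 5C against DMSO 5 were called higher, in 3C against DMSO 5 were called higher and 1 lower, and in 5C against 3C 4 were called higher. Cyp2d10, the most abundant member of the family in both cocktails by FPKM, was at 10.6 and 7.89 CPM in DMSO, 69.3 and 69.4 in 3C, and 125 and 137 in 5C. It rose by 3.84 (SE 0.13) in 5C and 2.87 (SE 0.13) in 3C on the log2 scale. Between 5C and 3C the difference was 0.97 (SE 0.12, adjusted p 0.00128), just under the limit of 1 for a call. Cyp2d26 was at 4.06 and 3.53 CPM in DMSO, 32.7 and 29.5 in 3C, and 81.7 and 106 in 5C. All 3 comparisons were called for it, with log2 fold changes of 4.65, 3.00 and 1.64. Cyp2d9, a steroid hydroxylase that is male-biased in mouse liver, was at 2.53 and 2.37 CPM in DMSO, 14.1 and 12.6 in 3C, and 41.6 and 39.8 in 5C. Its changes of 4.07, 2.42 and 1.65 on the log2 scale were all called.

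Cyp2d22 had the smallest called change of the subfamily against DMSO. It was at 44.6 and 42.3 CPM in DMSO, 103 and 120 in 3C, and 127 and 133 in 5C. Its log2 fold changes were 1.60 (SE 0.089) and 1.33 (SE 0.089) in 5C and 3C, and 5C and 3C differed by 0.27 (95% interval 0.077 to 0.47, adjusted p 0.0774). Cyp2d13 had counts of 11 and 5 in DMSO, 26 and 33 in 3C, and 168 and 144 in 5C, so that DMSO was at or under the floor of 12 count units. It was called higher in all 3 comparisons (log2 fold changes of 4.23, 1.82 and 2.41). The 3C against DMSO call was lost without the second DMSO library or any 1 cocktail library (1.40 to 1.97), and the 5C against 3C call without any 1 cocktail library (2.27 to 2.57). Without the first DMSO library, 5C against DMSO was 4.87 and 3C against DMSO 2.46. Cyp2d40 had counts of 17 and 12 in DMSO, 0 and 0 in 3C, and 26 and 56 in 5C. It was the single member called lower in 3C, at least 1.22-fold against the floor, on which the second DMSO library itself lay, and 5C was at least 3.32-fold higher than 3C. Both calls were lost without either 3C library (adjusted p 0.0504 to 0.0584) or without the second 5C library (0.0543 and 0.0958). In 5C against DMSO its log2 fold change of 1.46 did not pass (adjusted p 0.29). Cyp2d11, which shares 26.9% of its words with Cyp2d10, had counts of 58 and 0, 67 and 0, and 84 and 99. It was not called, and its fitted log2 fold changes were 1.64, 0.2 and 1.44. Cyp2d12 was not tested (highest count 8) and Cyp2d34 was at 0.

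Cyp2b and Cyp2a each had a single member that rose strongly among relatives that did not pass. Cyp2b10, the classic phenobarbital-induced target of CAR, was at 3.84 and 2.26 CPM in DMSO, 20.6 and 16.3 in 3C, and 78.8 and 78.2 in 5C. Its log2 fold changes were 4.70 (SE 0.24) in 5C and 2.57 (SE 0.23) in 3C against DMSO and 2.14 (SE 0.21) in 5C against 3C, with adjusted p of 9.75e-06, 0.000192 and 0.00119. Cyp2b9, a female-biased gene, had counts of 0 and 4, 39 and 15, and 35 and 14, with log2 fold changes of 3.48, 3.63 and -0.14 and no call. Cyp2b13 was not tested (highest count 5), and Cyp2b19 and Cyp2b23 were at 0.

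Cyp2a12, a steroid hydroxylase that the study also singled out, was at 0.968 and 0.622 CPM in DMSO, 14.7 and 12.3 in 3C, and 33.9 and 30.2 in 5C. It rose in every comparison, by 5.35 (SE 0.21), 4.05 (SE 0.2) and 1.30 (SE 0.17) on the log2 scale. The order of its DMSO libraries turned with the table, since the counts were 65 and 41 while the FPKM were 0.257 and 0.326. Cyp2a5, the coumarin hydroxylase and also a CAR target, had counts of 105 and 7 in DMSO, 91 and 86 in 3C, and 72 and 45 in 5C. Its log2 fold changes were 0.044 (95% interval -2.26 to 2.35), 0.63 (-1.66 to 2.93) and -0.59 (-2.88 to 1.7). Cyp2a4, its near-identical neighbour, had counts of 124 and 51, 87 and 58, and 127 and 32, with log2 fold changes of -0.17 (95% interval -1.68 to 1.34), -0.3 and 0.13. The groups of both genes overlapped, except for Cyp2a5 between the cocktails. There both 5C libraries (1.04 and 0.65 CPM) were under both 3C libraries (1.37 and 1.26). The intervals were too wide to say whether either gene changed. Cyp2a22 had counts of 5 and 0, 0 and 25, and 18 and 0, with fitted values of 1.77, 2.22 and -0.45 and no call.

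Cyp2e1, which oxidises ethanol and acetaminophen and turns CCl4 into the radical that injures hepatocytes, rose in both cocktails. It was at 0.357 and 0.485 CPM in DMSO, 3.35 and 2.08 in 3C, and 6.79 and 12.8 in 5C. The log2 fold changes were 4.56 (SE 0.43, adjusted p 5.72e-05), 2.65 (SE 0.41, adjusted p 0.00145) and 1.91 (SE 0.36, adjusted p 0.00963). The difference between cocktails was not called without the second 3C library (1.61) or without the second 5C library (1.35). Cyp2f2, known for activating naphthalene, had counts of 20 and 22, 168 and 89, and 195 and 150. It rose by 2.99 in 5C and 2.56 in 3C, and 5C and 3C differed by 0.43 (95% interval -0.46 to 1.31).

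Of the 3 tested Cyp2j genes, 2 were called higher in 5C against DMSO and 3 in 3C against DMSO, and none was called between the cocktails. Cyp2j5, an epoxygenase of hepatocytes and kidney, was at 3.74 and 4.93 CPM in DMSO, 29.8 and 35.7 in 3C, and 41 and 43.2 in 5C. It rose by 3.30 (SE 0.16) in 5C and 2.88 (SE 0.16) in 3C, and the cocktails differed by 0.41 (95% interval 0.085 to 0.74, adjusted p 0.107). Cyp2j6, expressed in many tissues, was at 38.7 and 42.2 CPM in DMSO, 84.8 and 94.5 in 3C, and 58.8 and 67.8 in 5C. It was called higher in 3C (1.11, SE 0.1) and had a log2 fold change of 0.66 (SE 0.1, adjusted p 0.00115) in 5C, under the limit for a call. Its libraries were all lower in 5C than in 3C, by a log2 difference of -0.45 (SE 0.1, adjusted p 0.0198), again under the limit. Cyp2j9 rose by 1.85 in 3C and 1.37 in 5C, with counts of 43 and 36, 147 and 147, and 125 and 85, and differed between cocktails by -0.48 (95% interval -1.26 to 0.31). Its call in 5C was lost without either DMSO library or the first 5C library (1.08 to 1.48). Of the other Cyp2j genes, Cyp2j13 reached a count of 4, and Cyp2j7, Cyp2j8, Cyp2j11 and Cyp2j12 were at 0.

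Cyp2s1, found in epithelia outside the liver and induced by dioxin, was at 36.1 and 28.1 CPM in DMSO, 43.7 and 47.6 in 3C, and 101 and 92.1 in 5C. It was called in 5C against DMSO (1.61, SE 0.11) and in 5C against 3C (1.13, SE 0.11, adjusted p 0.000542). In 3C against DMSO its log2 fold change of 0.48 (SE 0.11, adjusted p 0.013) was under the limit. Cyp2r1, the vitamin D hydroxylase, had counts of 132 and 180, 175 and 184, and 221 and 228, with log2 fold changes of 0.48, 0.15 and 0.33. Cyp2u1, a fatty acid hydroxylase, had counts of 349 and 224, 249 and 305, and 192 and 273, with log2 fold changes of -0.33, -0.092 and -0.24. Cyp2t4 did not exceed a count of 17, and its log2 fold changes were 0.073, -0.041 and 0.11. None of these 3 genes was called in any comparison. Cyp2g1 of the olfactory mucosa and Cyp2w1 were at 0.

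**Figure D4:**
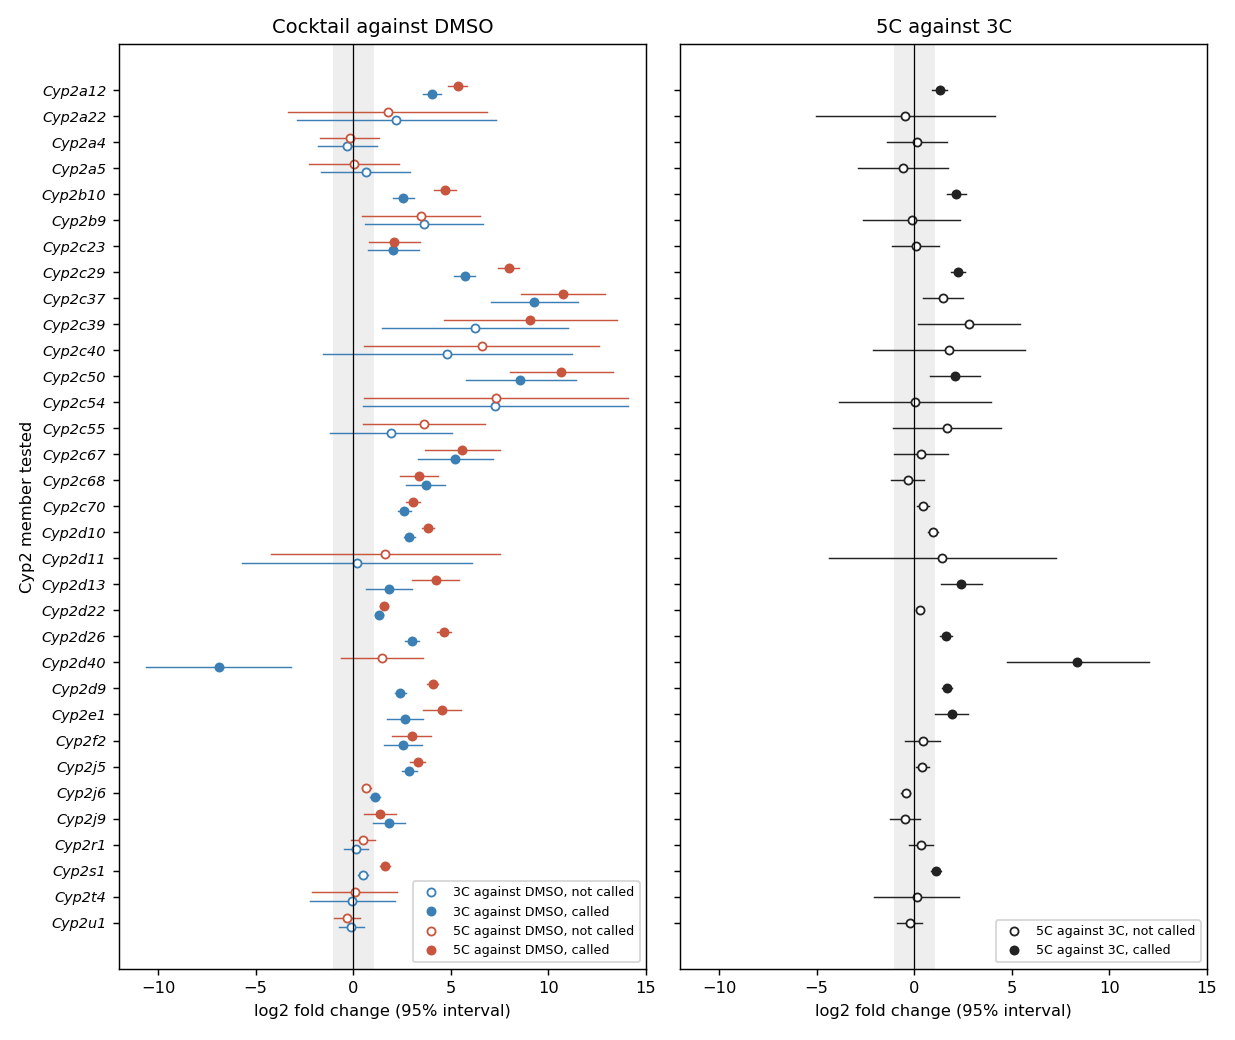
Log2 fold changes with 95% intervals of the 33 tested Cyp2 members in 3C and 5C against DMSO (left, blue and red) and in 5C against 3C (right); filled points were called, and the grey band marks changes up to 1. Fitted values of Cyp2c37, Cyp2c39, Cyp2c40, Cyp2c50 and Cyp2c54 against DMSO and those of Cyp2d40 that involve 3C rest on groups at 0 and are no measure of size; among the others Cyp2c29 is highest in 5C at 7.97.

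Among Cyp2 genes grouped by known regulation, the CAR or PXR list and the pericentral list each held called and uncalled genes. Of 8 genes known as CAR or PXR targets, 4 were called higher in each cocktail against DMSO (Cyp2b10, Cyp2c29, Cyp2c37 and Cyp2c50) and 3 in 5C against 3C, while Cyp2a5, Cyp2b9, Cyp2c54 and Cyp2c55 were not called. Cyp2b9, Cyp2c54 and Cyp2c55 had positive fitted values against DMSO, but their highest counts were 39, 40 and 52. Of 6 genes known as pericentral, 4 were called higher in each cocktail (Cyp2c29, Cyp2c37, Cyp2c50 and Cyp2e1), and Cyp2a5 and Cyp2c54 were not. Of 5 female-biased genes 3 were tested (Cyp2a4, Cyp2b9 and Cyp2c40), and none of them was called, while the male-biased Cyp2d9 was called in all 3 comparisons. The highest counts were 127, 39 and 13 for these 3 genes and 2870 for Cyp2d9. With 1 male-biased gene and such unlike counts, the lists allow no contrast by sex bias. The sex of the mice was not given in the labels, and the study used males and females in its CCl4 model.

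Genes that serve Cyp2 enzymes differed less between the groups. No call was made among 6 electron transfer genes, whose log2 fold changes did not exceed 0.93, with medians of 0.53, 0.44 and 0.092, although 5 of them had an adjusted p under 0.05 in 5C against DMSO. Por, named here for its role and chosen after its values were seen, went from 236 ± 9.4 CPM (SD, n = 2) in DMSO to 280 ± 18.1 in 3C and 325 ± 4.8 in 5C, a log2 fold change of 0.48 (SE 0.075, adjusted p 0.00121) in 5C against DMSO. Of 11 genes of heme synthesis and breakdown, Alas1, the rate-limiting enzyme of heme synthesis, was called, at 1.27 (SE 0.062, adjusted p 1.3e-06) in 5C against DMSO. Its CPM was 67.8 and 67.6 in DMSO, 101 and 101 in 3C, and 161 and 161 in 5C, and 5C exceeded 3C by 0.72 (adjusted p 0.00027), under the limit for a call.

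Of 16 receptors and factors that act on P450 genes, 6 were called higher in 5C against DMSO, 7 in 3C against DMSO and none in 5C against 3C, where 5 had an adjusted p under 0.05 at smaller differences. The largest changes among those of at least 10 CPM were those of Nr0b2 (2.83 in 5C and 2.19 in 3C), Nr1i2 (1.91 and 1.97), Ppara (1.69 and 2.04) and Hnf4a (1.04 and 1.39). Nr1i3, which encodes CAR and was named after its values were seen, was low and was called in both cocktails (2.26 and 1.52), at 0.536 and 0.592 CPM in DMSO, 2.14 and 1.17 in 3C, and 2.2 and 3.13 in 5C. Nr1i2, which encodes PXR, was at 7.79 and 7.74, 31.4 and 30.8, and 27.7 and 30 CPM. The 5C against 3C differences of the pair were 0.74 (adjusted p 0.293) and -0.058 (adjusted p 0.808). Among other P450 genes, 10 of 25 tested members of families 1, 3 and 4 were called higher in 5C against DMSO, 11 in 3C against DMSO and 5 in 5C against 3C. Cyp3a25 (8.48) and Cyp3a11 (7.95) had the largest fitted values of those of at least 10 CPM in 5C. Cyp3a25 was at 0.179 and 0 CPM in DMSO, at or under the floor, so its value is no measure of size. Of 11 tested genes of the remaining families, 5 were called higher and 1 lower in 5C against DMSO.

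Promoters of the members were read from GRCm39 as the 150 bases before the main transcript start in GENCODE. All 33 tested members had such a window, and in 25 of them the last 100 bases were also found in the RefSeq promoter of that gene (GRCm38.p6). Motifs were searched on both strands. Promoters are shown of some genes that rose in both cocktails and that hold TATAAA, so they do not stand for all genes that rose. Cyp2j6, which was called in 3C and holds a different motif, is shown beside them. Capitals mark matches to TATAAA (the sequence of a core promoter element), AGGTCA (a nuclear receptor half-site), CAAAGTCCA (HNF4A-type), TTGCNCAA (C/EBP-type) and GGGCGG (bound by Sp1-type factors). They lie at chr19:39275368-39275517 (plus strand), chr19:40175732-40175881 (minus), chr19:39637501-39637650 (minus), chr7:26728365-26728514 (plus), chr15:82291405-82291554 (minus) and chr4:96441930-96442079 (minus).
Cyp2c29: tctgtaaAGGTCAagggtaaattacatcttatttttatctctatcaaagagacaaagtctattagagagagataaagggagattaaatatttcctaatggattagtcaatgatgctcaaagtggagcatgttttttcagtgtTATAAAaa
Cyp2c70: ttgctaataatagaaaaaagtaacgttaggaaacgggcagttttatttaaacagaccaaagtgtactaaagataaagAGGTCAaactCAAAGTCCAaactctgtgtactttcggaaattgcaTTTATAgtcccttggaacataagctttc
Cyp2c67: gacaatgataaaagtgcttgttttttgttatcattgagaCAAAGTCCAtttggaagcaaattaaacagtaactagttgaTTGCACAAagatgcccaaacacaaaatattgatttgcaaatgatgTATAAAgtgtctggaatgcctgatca
Cyp2a12: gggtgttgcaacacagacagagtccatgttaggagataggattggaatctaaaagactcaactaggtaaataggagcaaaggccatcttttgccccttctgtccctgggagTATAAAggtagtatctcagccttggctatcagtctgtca
Cyp2d10: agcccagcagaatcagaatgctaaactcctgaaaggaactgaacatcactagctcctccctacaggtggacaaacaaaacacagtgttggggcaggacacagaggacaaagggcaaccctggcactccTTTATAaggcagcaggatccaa
Cyp2j6: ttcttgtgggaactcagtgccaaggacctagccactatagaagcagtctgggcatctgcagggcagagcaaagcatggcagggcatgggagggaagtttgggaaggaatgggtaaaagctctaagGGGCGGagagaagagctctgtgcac
TATAAA occurred in 13 of the 33 windows (39.4%), beside 7.29% of 21757 promoters of protein-coding genes of the same length. CAAAGTCCA occurred in Cyp2c40, Cyp2c67, Cyp2c68 and Cyp2c70 (12.1%, beside 0.244%), AGGTCA in 5 of 33 (15.2%, beside 7.94%) and GGGCGG in Cyp2j6, Cyp2t4 and Cyp2u1 (9.09%, beside 32.6%). TTGCNCAA occurred in Cyp2c67 (3.03%, beside 1.47%). The cAMP response element TGACGTCA was in 0 of the windows, beside 1.48% of all promoters, and the HNF1-type motif that was searched was in 0, beside 0.28%. Of the 20 members called higher in 5C against DMSO, 9 held TATAAA and 0 held GGGCGG, and of the other 13 tested members, 4 and 3 did. The windows of Cyp2b10, Cyp2c23, Cyp2c37, Cyp2c50, Cyp2d9, Cyp2d22, Cyp2d26, Cyp2e1 and Cyp2f2, which also rose in both cocktails, held none of these motifs. Members of a cluster share ancestry and so sequence, a match is not a bound site, and these counts were not tested.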

How the data were processed

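RNA was sequenced from cultured dHeps, 2 libraries in each of 3 groups, which were taken from the labels. The deposited table of expected counts holds whole numbers that the authors did not normalize. Its values of 4 and 8 were in excess (4816 entries of 4, beside 3121 of 3 and 2303 of 5), though 1 was the most frequent (6338), so the units per fragment are not known. With 4 units taken per fragment, the floor was 3 fragments, or 12 units (0.173 to 0.182 CPM). Lower bounds rest on this, and the floor covers counting error only. The authors deposited FPKM in a second table, which was used for levels between genes. FPKM and counts did not differ by a fixed factor (median coefficient of variation 2.42% over 11650 genes). The submitters' processing notes name GRCm39, featureCounts, Subread and DESeq2, without roles or versions, and the annotation and strand setting are not given in the sources used here.

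Counts were tested with edgeR 4.0.16 in R 4.3.3 (filterByExpr, TMM, robust quasi-likelihood F test, 6 libraries, 3 residual degrees of freedom). SEs were derived from the F statistic, with 95% intervals on the fit's degrees of freedom. A fold against a group at 0 in both libraries is a lower bound against the floor per library. An exact permutation test of 2 against 2 libraries cannot go below 0.333 and was not used. The scripts were tested on simulated data. Alternatives were RLE and upper quartile normalization, all genes with a count, counts divided by 4, DESeq2 1.42.0, limma 3.58.1 on log2 FPKM with pseudocounts of 0.1 and 1, a replicate block, no fold limit and leaving out each library. Positions and sequences came from GENCODE M39. Every tested member was named, with its log2 fold changes where no group was at 0. Members with a group at 0 were given with counts, and with lower bounds where a comparison was called. Members of 10 CPM were given with each library, and untested members with their highest count. From other lists, at most the 4 called genes of largest change with 10 CPM were named. The members and lists were chosen with earlier results of these data known.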

Additional observations from a re-analysis of the deposited data

How the results depend on the processing

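Depth limits the members of few counts, since 22 of the 33 tested members stayed under 10 CPM. With limma on log2(FPKM + 1), 13 members were called higher in 5C against DMSO and 10 in 3C against DMSO, both with and without the filter on low values, and 5 in 5C against 3C without the filter. The median log2 fold change was then 0.81 in 5C against DMSO and 0.63 in 3C against DMSO, or 0.51, 0.24 and 0.14 in the 3 comparisons without the filter. With log2(FPKM + 0.1) the medians against DMSO were 2.36 and 1.38. The lower call of Cyp2d40 in 3C against DMSO (main count 1) became 0 with counts divided by 4 and in the limma fits with a pseudocount of 1, with and without the filter, and of 0.1. Without a fold limit, 1 member (Cyp2j6) was lower in 5C than in 3C. Leaving out each library in turn gave medians of 3.13 to 3.53 in 5C against DMSO, 2.39 to 2.71 in 3C against DMSO and 0.46 to 1.04 in 5C against 3C. It left 0 to 1 lower calls in 3C against DMSO, with 0 without either 3C library or without the second 5C library, and 6 to 10 higher calls in 5C against 3C, with 6 without the second 3C library and 6 without the second 5C library. The lone library of a group is then assumed to vary like the others. Replicate numbers did not pair the libraries, as deviations of same-numbered libraries correlated at -0.031, 0.00068 and 0.016, and a replicate block gave 20, 19 and 9 higher calls. Neither a median nor the log2 fold change of a called member reversed its direction under an alternative. Members without a call in the main fit were not checked in this way. Of the values for called members under the alternatives, 78 kept their direction and lost their call, and 670 kept both.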

Other observations

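Rows of Cyp2 genes outside the rule for members numbered 24. Cyp2d37-ps, annotated as a pseudogene, had counts of 0 and 0 in DMSO, 40 and 53 in 3C and 53 and 56 in 5C. Cyp2ab1, whose symbol has a pair of subfamily letters, had counts of 116 and 34 in DMSO, 49 and 58 in 3C and 12 and 20 in 5C, so it was lowest in the 5C libraries, where the Cyp2 sum was highest.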
